A study of Mus musculus with 4 samples.

Results

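Basement membrane genes were followed in primary mouse VSMCs in which *Mettl14*, a subunit of the m6A writer complex, was depleted. The set holds 10 genes taken by symbol: the type IV collagen chains *Col4a1*, *Col4a2* and *Col4a5*, the collagens *Col15a1* and *Col18a1*, the laminin chains *Lama4*, *Lamb1* and *Lamc1*, the linker *Nid1* and the proteoglycan *Hspg2*. They are 10 of the 48587 genes listed, and all 10 were among the 18916 genes kept after the filter on low counts. The cells came from the descending aorta of adult C57BL/6J mice, after the adventitia had been digested and the endothelium scraped, and had been passaged in culture. The shCTR group received a lentivirus with a hairpin against a plant microRNA, and the shMettl14 group received the same kind of lentivirus with a single hairpin against *Mettl14*. All cells were wild type apart from the lentivirus, and poly-A RNA of 2 libraries per group, lettered A and B, was sequenced. No source used here says whether the libraries came from separate animals or cultures, so p-values measure the spread between these libraries only, which may be technical. The reported fit did not model the letters, so in it that spread includes any difference between A and B.

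A basement membrane is a thin sheet of matrix that surrounds each smooth muscle cell of the arterial media and lies under the endothelium. Laminin trimers form a first network on the cell surface, type IV collagen forms a second, covalently cross-linked network, and nidogen and perlecan bridge them. Contractile smooth muscle cells are enclosed by this sheet, and it is broken down and rebuilt when they take on the synthetic state, which is why its genes are of interest in a model of VSMC dedifferentiation.

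*Col4a1* and *Col4a2*, which encode the chains of the most widespread type IV collagen, lie head to head and share a promoter, and their start regions are shown because both genes were higher in both shMettl14 libraries. In RefSeq (GRCm38.p6) their starts lie 21 bases apart, at 11312826 for *Col4a1* on the minus strand and 11312805 for *Col4a2* on the plus strand of chromosome 8, so that the first bases of the transcripts overlap. The windows run from 250 bases before to 50 bases after each start and share 78 bases. *Col4a5* and *Col15a1* are shown beside them as the members with the largest positive and the largest negative difference. Capitals mark matches to CCAAT and GGGCGG on either strand, and each line reads 5′ to 3′ on the strand of its gene.
Col4a1, chr8:11312777-11313076, minus strand: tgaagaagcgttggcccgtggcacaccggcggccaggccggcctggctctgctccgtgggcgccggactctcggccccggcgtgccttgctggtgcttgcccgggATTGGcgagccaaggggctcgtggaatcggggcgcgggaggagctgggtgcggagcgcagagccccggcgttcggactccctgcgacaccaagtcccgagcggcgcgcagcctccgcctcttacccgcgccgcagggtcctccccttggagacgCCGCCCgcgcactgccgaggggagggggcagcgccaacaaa
Col4a2, chr8:11312555-11312854, plus strand: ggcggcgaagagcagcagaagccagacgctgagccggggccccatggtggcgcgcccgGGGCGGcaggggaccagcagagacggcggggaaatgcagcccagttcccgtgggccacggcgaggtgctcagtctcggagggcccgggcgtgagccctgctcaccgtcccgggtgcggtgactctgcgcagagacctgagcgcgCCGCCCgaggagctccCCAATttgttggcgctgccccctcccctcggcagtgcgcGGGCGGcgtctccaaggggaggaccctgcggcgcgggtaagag
Col4a5, chrX:141475169-141475468, plus strand: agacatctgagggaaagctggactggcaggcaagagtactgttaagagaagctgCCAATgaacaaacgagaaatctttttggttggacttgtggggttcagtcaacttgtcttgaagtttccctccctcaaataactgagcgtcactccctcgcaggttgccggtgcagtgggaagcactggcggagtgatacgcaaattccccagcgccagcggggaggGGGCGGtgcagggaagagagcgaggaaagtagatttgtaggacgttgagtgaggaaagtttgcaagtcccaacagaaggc
Col15a1, chr4:47207762-47208061, plus strand: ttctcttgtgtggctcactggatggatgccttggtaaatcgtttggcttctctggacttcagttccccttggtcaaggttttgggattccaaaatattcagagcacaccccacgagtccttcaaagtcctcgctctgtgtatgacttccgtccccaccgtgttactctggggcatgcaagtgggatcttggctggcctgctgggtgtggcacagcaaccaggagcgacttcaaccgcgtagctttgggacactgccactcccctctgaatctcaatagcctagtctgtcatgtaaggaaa

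The windows of *Col4a1* and *Col4a2* were rich in G and C, at 74.0% and 73.7% of the bases, as was that of *Hspg2* (70.3%). Those of *Nid1* (64.7%), *Lamb1* (63.7%) and *Col18a1* (63.3% and 59.7%) also lay above the median of all 32851 mouse windows (52.7%). The windows of *Col4a5* (52.7%) and *Col15a1* (52.3%) were close to that median. RefSeq windows were matched for 8 of the 10 genes, 9 windows in all, since *Col18a1* has a pair of starts. The letters GGGCGG were found in 7 of the 9 windows against 35.7% of all windows, and CCAAT in 6 of 9 against 37.4%. The 1 GGGCGG match of the *Col4a1* window lies in the bases shared with the *Col4a2* window, so that site is counted in both. These shares were not adjusted for the content of G and C. The *Col15a1* window and the downstream *Col18a1* window held neither. None of the 9 windows held TATAAA (13.6% of all windows), TGANTCA (7.81%) or a CArG box (1.63%), each searched on both strands, where a CArG box can share letters with CCAAT or TATAAA. The matches describe letters and not bound sites.

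The library totals ranged from 114343653 to 124815868 counts, and every member had between 7383 and 413643 counts in each library. Counting error was therefore small beside the difference between libraries. Counts were scaled to CPM (counts scaled to a common library size) with edgeR's TMM factors. *Mettl14* had 18.0 and 19.9 CPM in shCTR A and B and 4.60 and 4.37 CPM in shMettl14 A and B, so the target was lower in both libraries that carried its hairpin. The 8 smooth muscle markers examined were all detected and summed to 6799 and 5772 CPM in shCTR A and B and to 4442 and 4811 CPM in shMettl14 A and B. The 9 endothelial markers were all detected as well, and summed to 2093 and 4159 CPM in shCTR A and B and to 1951 and 2664 CPM in shMettl14 A and B. *Pecam1*, which marks endothelial cells, had between 477 and 820 CPM. Lists of 7 fibroblast (505 to 670 CPM) and 6 leukocyte markers (11.1 to 15.2 CPM) were also summed. So were 6 striated muscle markers (0.800 to 1.54 CPM in 3 libraries, higher in shCTR A). Most of the fibroblast sum was *Cd34* (414 and 498 CPM in shCTR, 449 and 505 CPM in shMettl14, A and B). Most of the rest was *Dcn* (68.3 and 160 CPM in shCTR, 72.3 and 120 CPM in shMettl14, A and B). *Pdgfra* had 7.93 to 14.5 CPM, and each other fibroblast marker had at most 6.32 CPM. A list of 5 pericyte markers had 539 and 473 CPM in the A libraries of shCTR and shMettl14 and 179 and 161 CPM in the B libraries. *Rgs5* (286 and 270 CPM in A, 40.5 and 48.8 CPM in B) and *Cspg4* made up nearly all of that sum. *Kcnj8* (0.387 and 0.682 CPM in A, 0.843 and 1.14 CPM in B) and *Abcc9* were low and went the other way with both hairpins. The pericyte markers thus did not share a direction between letters. Every listed marker had a count in at least 1 library, and 6 markers were at 0 in some: *Cd3e* and *Myh6* outside shCTR A, *Ckm* in shMettl14 A, *Higd1b* outside shMettl14 A, *Lum* in shCTR B and *Myh4* in both shMettl14 libraries. Since endothelial cells and pericytes also make basement membrane, the part of other cells in the values below was not tested, and fewer cells of a type cannot be told apart from less RNA per cell in such bulk libraries.

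Members differed widely in level. Per kb of annotated exon, the mean over the 4 libraries was highest for *Col4a1* (192 CPM per kb), followed by *Hspg2* (188 CPM per kb), *Col4a2* (163 CPM per kb) and *Nid1* (129 CPM per kb). *Col4a1* ranked 198 and *Nid1* 298 among 18237 genes with a length. A middle group held *Lamb1* (45.7 CPM per kb), *Lamc1* (44.3 CPM per kb) and *Col4a5* (37.8 CPM per kb). *Col15a1* (16.7 CPM per kb), *Col18a1* (12.6 CPM per kb) and *Lama4* (6.87 CPM per kb) were lowest, and the span from *Col4a1* to *Lama4* was 27.9-fold. Neighbours in this order were separated beyond their range over the libraries in 3 places: *Col4a2* lay above *Nid1*, *Nid1* above *Lamb1*, and *Col18a1* above *Lama4*. The ranges of the other neighbours overlapped.

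**Figure D1:**
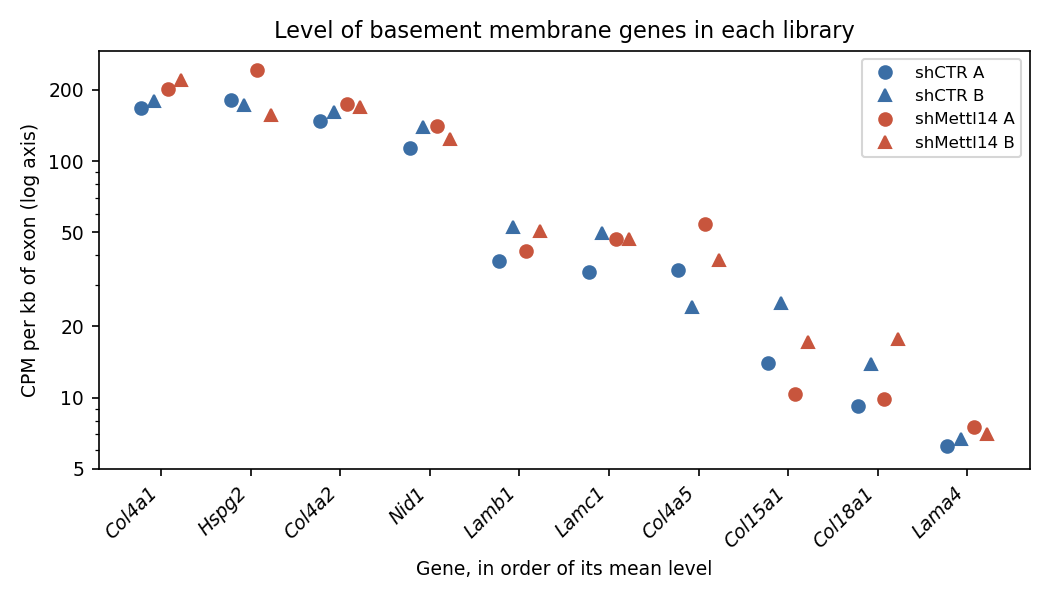
Level of each basement membrane gene in each library, in CPM per kb of exon on a log axis, with genes in order of their mean. Blue points are shCTR and red points shMettl14, circles are letter A and triangles letter B; *Col4a1*, *Hspg2*, *Col4a2* and *Nid1* are the highest genes in every library, and *Lama4* is the lowest gene in every library.

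Of the 10 members, 9 had a higher mean level with shMettl14 than with shCTR by the fitted fold change and 1, *Col15a1*, had a lower one. None passed the test, which does not show that their levels were equal. The same test did not call *Mettl14* at an adjusted p under 0.05 either, although its log2 fold change was −2.08. With edgeR's quasi-likelihood test and Benjamini-Hochberg adjustment over 18916 genes, 0 members had an adjusted p under 0.05 (0% of all genes tested) and 0 had an unadjusted p under 0.05 (1.67% of all genes), and every member's adjusted p rounded to 1. DESeq2 called 0 members as well, by either p. Other edgeR settings moved the count at an unadjusted p under 0.05, with 0 members still at an adjusted one. It was 2 (*Col4a5* and *Col15a1*) with the letters as a replicate block, where 10.3% of all genes passed. With no filter beyond 1 count it was 1 (*Col4a5*), against 1.62% of all genes. The median log2 fold change of the members was 0.17 against 0.01 over all genes tested, of which 51.2% were higher. The direction of the set rested in part on shCTR A, in which 7 of the 10 members had their lowest level, against 28.0% of all genes. Without that library 5 members were higher and 5 lower, and the median was 0.04, equal to that of all genes (0.04). Without shMettl14 A or without shMettl14 B, 7 were higher and 3 lower, and without shCTR B the counts stayed at 9 and 1 with a median of 0.26.

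Within the letters, 9 members were higher with shMettl14 in A and 5 in B, against 50.3% and 52.0% of all genes. The median log2 ratio of the members was 0.27 in A and 0.0035 in B, the latter turning to −0.0075 with RLE factors. Members higher within both letters were *Col4a1*, *Col4a2*, *Col4a5*, *Col18a1* and *Lama4*, 5 of 10 against 30.0% of all genes (8 of 10 against 41.7% when scaled by library totals without TMM), and *Col15a1* was the 1 member lower within both, against 27.7%. The other 4, *Lamb1*, *Lamc1*, *Nid1* and *Hspg2*, were higher in A and lower in B. Both shMettl14 libraries lay above both shCTR libraries for 4 members, against 14.7% of all genes, and both lay below for 0 members, against 13.3%.

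**Figure D2:**
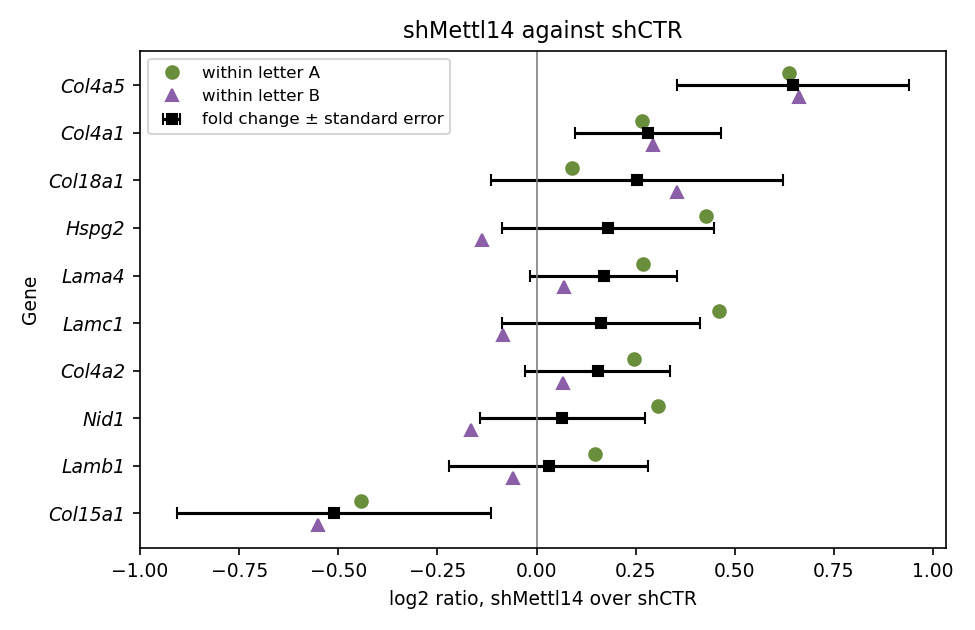
Log2 ratio of shMettl14 over shCTR for each member, with genes in order of the fitted fold change. Squares and bars are edgeR's log2 fold change and its standard error, circles the ratio within letter A and triangles the ratio within letter B; *Col4a5* (0.65) and *Col15a1* (−0.51) lie at the ends, and *Lamb1*, *Nid1*, *Lamc1* and *Hspg2* have letters on opposite sides of 0.

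Among the type IV collagens, *Col4a1* (ENSMUSG00000031502, chromosome 8 from 11198423 to 11312826 on GRCm38) had 1247 and 1341 CPM in shCTR A and B and 1499 and 1644 CPM in shMettl14 A and B. The groups did not overlap. Means were 1294 ± 65.9 CPM and 1572 ± 102 CPM (SD, n = 2 libraries each). On the log2 scale shMettl14 exceeded shCTR by 0.28 ± 0.18 (SE of the fit), and by 0.27 in A and 0.29 in B. The ratios of the letters were thus alike, as they were for *Col4a5*.

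*Col4a2* (ENSMUSG00000031503, chromosome 8 from 11312805 to 11449287), the partner chain, had 972 and 1070.3 CPM in shCTR A and B and 1153 and 1122 CPM in shMettl14 A and B. The groups again did not overlap, but the gap between shCTR B and shMettl14 B was narrow. The log2 fold change was 0.15 ± 0.18 (SE), smaller than its error, and the log2 ratio was 0.25 within A and 0.07 within B. Of the exon bases, 0.295% of *Col4a1* and 0.982% of *Col4a2* overlap genes on the other strand, each other included, and whether the counting used strand is not given in the sources used here.

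*Col4a5* (ENSMUSG00000031274, chromosome X from 141475385 to 141689234) encodes a chain of a more restricted collagen network, best known from the kidney glomerulus and also found around smooth muscle. It had 234 and 162 CPM in shCTR A and B and 363 and 257 CPM in shMettl14 A and B. Both shMettl14 libraries were above both shCTR libraries, although shMettl14 B (257 CPM) was close to shCTR A (234 CPM). Its log2 fold change of 0.65 ± 0.29 (SE) was the largest of the set, and its unadjusted p of 0.078 from edgeR's quasi-likelihood test the lowest. The log2 ratios were 0.64 in A and 0.66 in B, while letter B was below letter A by nearly as much, at −0.53 with shCTR and −0.50 with shMettl14. Without 1 library at a time the fold change lay between 0.38 (without shMettl14 A) and 0.93 (without shCTR A), and in the latter case the unadjusted p was 0.028 and the adjusted p 0.73, both from edgeR.

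The ratios between chains, which do not depend on library scaling, were then compared. Per kb of exon, the *Col4a2* to *Col4a1* ratio was 0.879 and 0.900 in shCTR A and B and 0.867 and 0.769 in shMettl14 A and B. Both genes were thus counted at similar levels of RNA per kb, with *Col4a2* the lower in every library and the ratio lowest in shMettl14 B. The *Col4a5* to *Col4a1* ratio was 0.208 and 0.135 in shCTR A and B and 0.269 and 0.174 in shMettl14 A and B. It was higher with shMettl14 by 0.37 on the log2 scale within A and by the same amount, 0.37, within B, but shMettl14 B lay below shCTR A, so the groups overlapped. In an exact permutation test of 2 libraries against 2, which cannot give a two-sided p below 0.333, p was 0.333 for the first ratio and 0.667 for the second.

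**Figure D3:**
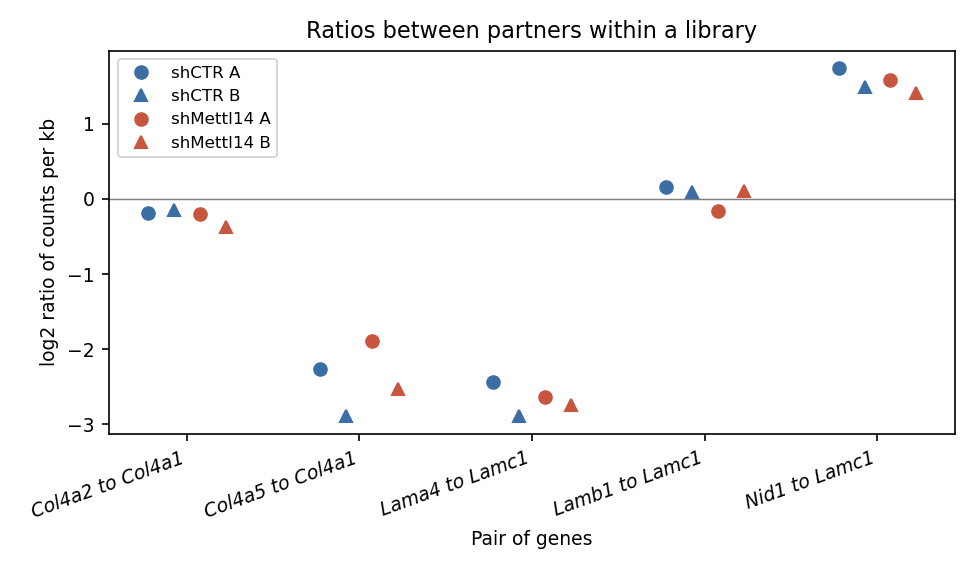
Log2 ratio of counts per kb of exon between pairs of members, in each library. Blue points are shCTR and red points shMettl14, circles are letter A and triangles letter B. The *Col4a2* to *Col4a1* ratio is the 1 of the 5 whose groups do not overlap, with a log2 difference of only −0.02 within A and −0.23 within B. The *Col4a5* to *Col4a1* ratio shows the same step between hairpins in both letters.

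*Col15a1* and *Col18a1* encode the related multiplexins, collagens of the basement membrane zone whose C-terminal parts can be released as the fragments restin and endostatin. *Col15a1* (ENSMUSG00000028339, chromosome 4 from 47208161 to 47313167 by GENCODE M21) had 89.1 and 160 CPM in shCTR A and B and 65.5 and 109 CPM in shMettl14 A and B. It was lower with shMettl14 in each letter and higher in B than in A with each hairpin, so the groups overlapped. On the log2 scale it was lower with shMettl14 by the fitted value of −0.51 ± 0.40 (SE; edgeR's unadjusted p = 0.25), the ratios were −0.44 in A and −0.55 in B, and the B over A ratios 0.84 with shCTR and 0.73 with shMettl14. The fold change shrank to −0.03 without shCTR B and was −0.19 without shMettl14 A, and grew to −0.87 without shCTR A and −0.92 without shMettl14 B. Its order over the libraries, shCTR B, shMettl14 B, shCTR A and shMettl14 A from high to low, was also the order of the summed endothelial markers given above (4159, 2664, 2093 and 1951 CPM). Of the 9 endothelial markers, 2 (*Emcn* and *Vwf*) had this order by themselves, and without *Emcn* the sum was 2059 CPM in shCTR B, 1587 CPM in shMettl14 B, 1445 CPM in shCTR A and 1467 CPM in shMettl14 A, no longer in the order of *Col15a1*. The part of endothelial RNA in the *Col15a1* values was not tested.

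*Col18a1* (ENSMUSG00000001435, chromosome 10 from 77052178 to 77166548) had 65.0 and 97.0 CPM in shCTR A and B and 69.2 and 124 CPM in shMettl14 A and B. Letter B was again the higher, by 0.58 with shCTR and 0.84 with shMettl14 on the log2 scale. That difference exceeded the one between hairpins, whose log2 ratios were 0.09 in A and 0.35 in B. The multiplexins thus stood on the same side between letters and on opposite sides between hairpins. The latter was not stable, since the groups overlapped for both genes. The fold change of *Col18a1* also turned negative without shCTR A (−0.0084) and without shMettl14 B (−0.23).

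The laminin chains *Lama4*, *Lamb1* and *Lamc1* can assemble into a trimer of vascular basement membranes, with *Lamc1* the gamma chain of most laminins. *Lama4* (ENSMUSG00000019846, chromosome 10 from 38965515 to 39110188) had 75.6 and 80.6 CPM in shCTR A and B and 91.0 and 84.6 CPM in shMettl14 A and B. The groups did not overlap, and the log2 fold change was 0.17 ± 0.19 (SE), larger within A (0.27) than within B (0.07). *Lamb1* (ENSMUSG00000002900, chromosome 12 from 31265234 to 31329644) had 375 and 523 CPM in shCTR A and B and 415 and 501 CPM in shMettl14 A and B. Both shMettl14 values lay inside the shCTR range, and the log2 fold change was 0.03 ± 0.25 (SE).

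*Lamc1* (ENSMUSG00000026478, chromosome 1 from 153218922 to 153332786) had 281 and 411 CPM in shCTR A and B and 386 and 387 CPM in shMettl14 A and B. The shMettl14 libraries were nearly equal and lay inside the wide shCTR range, so that the log2 ratio was 0.46 in A and −0.08 in B. Per kb, the *Lamb1* to *Lamc1* ratio was 1.11 and 1.06 in shCTR A and B and 0.897 and 1.08 in shMettl14 A and B, close to equal counts per kb for both genes. The *Lama4* to *Lamc1* ratio was 0.184 and 0.135 in shCTR A and B and 0.162 and 0.1497 in shMettl14 A and B. *Lama4* thus had the fewest counts per kb of these laminin genes in every library. The divisor is all annotated exon bases of a gene (12.068 kb for *Lama4*), whichever transcripts are made. These RNA ratios do not measure protein chains. In neither ratio did the groups separate, and the exact permutation p (2 libraries against 2, two-sided) was 0.667 for *Lamb1* and 1 for *Lama4*.

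*Nid1* (ENSMUSG00000005397, chromosome 13 from 13437551 to 13512269) encodes nidogen, which binds laminin and type IV collagen. It had 787 and 968 CPM in shCTR A and B and 973 and 863 CPM in shMettl14 A and B. The groups overlapped, with a log2 fold change of 0.07 ± 0.21 (SE). Of its exon bases 2.06% overlap a gene on the other strand. Per kb there were 2.65 to 3.34 *Nid1* counts for each *Lamc1* count, and the groups overlapped in this ratio too (exact permutation p = 0.667).

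*Hspg2* (ENSMUSG00000028763, chromosome 4 from 137468769 to 137570630) encodes perlecan, the large heparan sulphate proteoglycan of the media. It had 2588 and 2463 CPM in shCTR A and B and 3483 and 2241 CPM in shMettl14 A and B. The shCTR libraries were alike (2526 ± 88.3 CPM, SD, n = 2), whereas shMettl14 A was the highest and shMettl14 B the lowest of all (2862 ± 879 CPM, SD, n = 2). The log2 ratio was 0.43 in A and −0.14 in B, and the log2 fold change was 0.18 ± 0.27 (SE). Summed over all of them, the 10 members took 0.658% and 0.687% of all counts in shCTR A and B and 0.880% and 0.764% in shMettl14 A and B. After TMM scaling their sum was 6714 and 7275 CPM in shCTR A and B and 8499 and 7333 CPM in shMettl14 A and B, so that the B libraries were nearly equal.

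The spread between letters was as large as that between hairpins in much of the set. The mean B over A ratio exceeded the mean ratio of the hairpins in size for 5 of the 10 members, *Col15a1*, *Col18a1*, *Lamb1*, *Lamc1* and *Hspg2*, compared with 64.2% of all genes. It did not for *Col4a1*, *Col4a2*, *Col4a5*, *Lama4* and *Nid1*. For *Nid1* both means were small because signs differed, with 0.30 and −0.17 between letters and 0.31 and −0.17 between hairpins. With shCTR, 8 members were higher in B than in A, with a median log2 ratio of 0.22, and with shMettl14 5 were, with a median of −0.02. *Col4a1*, *Col15a1*, *Col18a1*, *Lamb1* and *Lamc1* were higher in B with both hairpins, though *Lamc1* hardly so with shMettl14 (386 and 387 CPM), and *Col4a5* and *Hspg2* were higher in A with both.

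**Figure D4:**
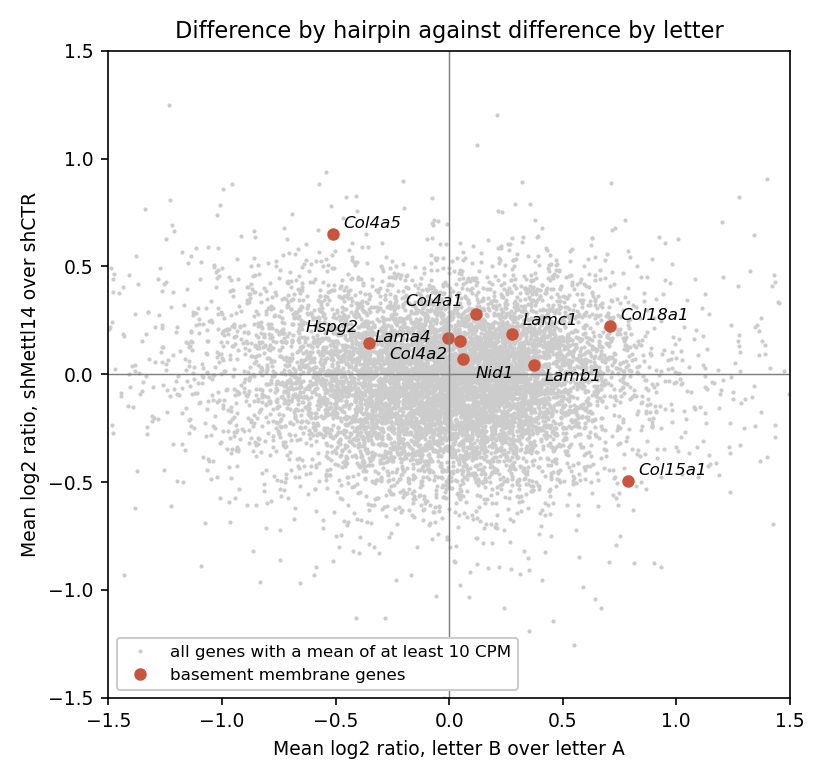
Mean log2 ratio of shMettl14 over shCTR (vertical) against mean log2 ratio of letter B over letter A (horizontal), 1 point per gene. Red points are the 10 members and grey points all 9098 genes with a mean of at least 10 CPM, of which 175 lie outside the axes; *Col4a5* stands at the upper left, *Col15a1* at the lower right and *Col18a1* to the right, and the other members lie nearer the centre.

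Leaving out 1 library at a time gave fits that assume the lone library of a group varies like the others. *Col4a1* (0.21 to 0.35 on the log2 scale), *Col4a2* (0.08 to 0.23), *Lama4* (0.12 to 0.22) and *Col4a5* (0.38 to 0.93) had a positive log2 fold change in all 4 of these fits, and *Col15a1* a negative one. For the 4 positive members the sign was set in advance, since both shMettl14 libraries lay above both shCTR libraries. Their fits show only how far the size moved. *Col18a1*, *Lamb1* and *Nid1* changed sign in 2 of the 4 fits each: *Col18a1* without shCTR A (−0.0084) and without shMettl14 B (−0.23), *Lamb1* without the same libraries (−0.19 and −0.11), and *Nid1* without shCTR A (−0.08) and without shMettl14 A (−0.02). *Lamc1* and *Hspg2* changed sign in 1 fit each. The sign of *Lamc1* was lost without shCTR A (−0.09) and that of *Hspg2* without shMettl14 A (−0.17).

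**Figure D5:**
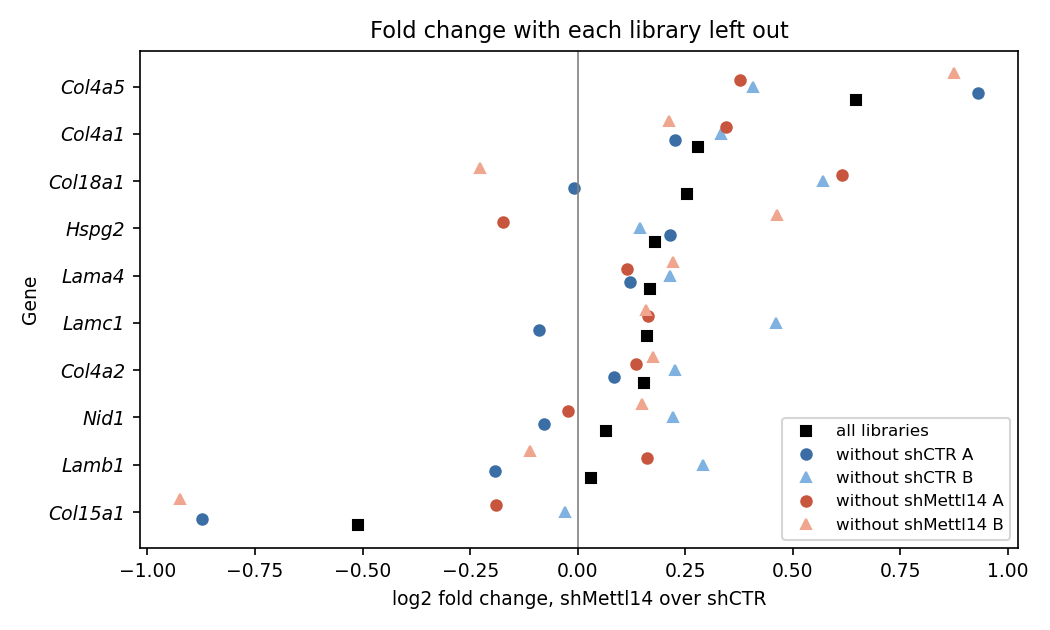
Log2 fold change of shMettl14 over shCTR for each member with all 4 libraries (black squares) and with each library left out in turn (coloured points). All points of *Col4a5*, *Col4a1*, *Lama4* and *Col4a2* lie right of 0 and all points of *Col15a1* left of it, while *Col18a1*, *Hspg2*, *Lamc1*, *Nid1* and *Lamb1* have points on both sides.

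Other genes of the basement membrane were examined from a list of 26, of which 25 were tested. None had an adjusted p (0% of all genes) or an unadjusted p (1.67% of all genes) under 0.05 by edgeR's quasi-likelihood test, in either direction. The log2 fold change was positive for 14, against 51.2% of all genes, and negative for 11, with a median of 0.02. *Sparc*, a collagen-binding matricellular protein, had 4897 and 3975 CPM in shCTR A and B and 4358 and 4098 CPM in shMettl14 A and B, so the groups overlapped. *Smoc1*, which encodes a related calcium-binding protein, had a log2 fold change of −0.10 ± 0.19 (SE). *Tinagl1*, a matrix protein of vascular basement membranes, had 445 and 429 CPM in shCTR A and B and 341 and 333 CPM in shMettl14 A and B. The groups of *Tinagl1* did not overlap, where 13.3% of all genes had both shMettl14 libraries below both shCTR libraries. Its log2 fold change was −0.37 ± 0.18 (SE, unadjusted p of 0.093 by edgeR, adjusted p rounding to 1).

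Genes for the synthesis, folding and cross-linking of these collagens and laminins were tested in 20 of 21 cases. Of the 20, 0 had an adjusted p (0% of all genes) or an unadjusted p (1.67% of all genes) under 0.05 by edgeR. The log2 fold change was positive for 6, against 51.2% of all genes, and negative for 14, and the median was −0.11. *Serpinh1*, the collagen chaperone of the endoplasmic reticulum, had a log2 fold change of −0.11 ± 0.23 (SE). *P4hb*, the beta subunit of prolyl 4-hydroxylase, had −0.21 ± 0.19 (SE). *P4ha1*, a catalytic subunit of that enzyme, had 497 and 626 CPM in shCTR A and B and 384 and 494 CPM in shMettl14 A and B, a log2 fold change of −0.36 ± 0.24 (SE). The *P4ha1* level was lower with shMettl14 within both letters, as for 27.7% of all genes, though shMettl14 B (494 CPM) lay just below shCTR A (497 CPM). *Col4a1* and *Col4a2* were higher within both, as were 30.0% of all genes. A link between these genes was not tested.

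Receptors that bind basement membranes were tested in 16 of 16 cases. By edgeR, 0 were past an adjusted p (0% of all genes) or an unadjusted p (1.67% of all genes) of 0.05. Their median log2 fold change was −0.03, with 6 positive, against 51.2% of all genes, and 10 negative. *Itgb1*, the beta subunit shared by many laminin and collagen receptors, had a log2 fold change of −0.19 ± 0.23 (SE). *Sdc3*, a cell surface proteoglycan, had one of −0.00041 ± 0.31 (SE), and *Ddr2*, a collagen receptor kinase, had 0.27 ± 0.19 (SE).

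The mean profile of the members over the 4 libraries, with each gene centred on its own mean on the log2 scale, was −0.20 and 0.05 in shCTR A and B and 0.04 and 0.10 in shMettl14 A and B. The genes outside the set closest to this profile, of 9088 with a mean of at least 10 CPM, were *Napg*, *Magi2*, *C1qtnf1*, *Adi1* and *Wwp1*, at Euclidean distances of 0.0072 to 0.030. Among the members, *Col4a2* was the closest at 0.10 and *Col15a1* the farthest at 0.90. The genes outside the set were picked as the closest of 9088, so their distances cannot be set against those of the members. With 4 libraries, this likeness is a description only.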

How the data were processed

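Poly-A RNA of primary mouse VSMCs was measured in 2 shCTR and 2 shMettl14 libraries. The authors aligned read pairs to mm10 (GRCm38.p6) by STAR and summarised them by featureCounts, and deposited raw counts per gene symbol. Tool versions, the strand setting and the treatment of reads with several places are not given in the sources used here.

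Counts were analysed with edgeR 4.0.16 in R 4.3.3 (TMM, filterByExpr, robust quasi-likelihood fit of shMettl14 against shCTR, Benjamini-Hochberg over 18916 genes, threshold 0.05). SE was taken as the size of the log2 fold change over the root of F. Ratios within letters and centred profiles used log2 CPM with a prior count of 2. CPM values are TMM-scaled, and SDs are over 2 libraries. Exon lengths, places and overlaps came from GENCODE M21 (GRCm38), and promoter windows from RefSeq (GRCm38.p6). Exact permutation tests used scipy 1.17.1. The study's methods name DESeq2, which was run as an alternative (version 1.42.0), along with RLE and upper-quartile scaling, no filter beyond 1 count, a minimum of 10 counts in every library, the letters as a replicate block, a prior count of 0.5 and each library left out. Scaling by library totals was added after the data had been seen. The members, lists and tests were chosen with earlier results of these data known. Genes of the lists were named if their unadjusted p was under 0.05 and otherwise as the 3 with the highest mean CPM. *Pecam1*, *Emcn*, *Vwf*, *Cd34*, *Dcn*, *Pdgfra*, *Rgs5*, *Cspg4*, *Kcnj8*, *Abcc9* and the markers at 0 were named after their values were seen.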

Additional observations from a re-analysis of the deposited data

How the results depend on the processing

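No member had an adjusted p under 0.05 in edgeR under any scaling (TMM, RLE, upper quartile or library totals) or filter, with a replicate block or with a library left out, or in DESeq2. At an unadjusted p under 0.05 there were 0 members in the reported fit, 1 (*Col4a5*) with no filter beyond 1 count, 0 to 1 with a library left out (*Col4a5* without shCTR A), and 2 (*Col4a5* and *Col15a1*) with the letters as a replicate block, where 10.3% of all genes passed. Under the block, edgeR's adjusted p was 0.23 for *Col4a5* and 0.33 for *Col15a1*. The block gave 9 calls among all genes against 0 without it, and same-letter libraries deviated from their group means together (r = 0.578 across genes). The common dispersion was 0.178 without the block and 0.0418 with it. Since nothing says what the letters share and there are only 2 pairs, the block stayed an alternative. *Mettl14* (edgeR's adjusted p rounds to 1 as reported) passed with the block (log2 fold change −2.08, adjusted p = 0.0039) and with DESeq2 (−2.09, adjusted p = 2.0e-09), and its edgeR adjusted p was otherwise at least 0.24.

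The median log2 fold change of the members was between 0.04 and 0.26 with a library left out (0.26 without shCTR B), and between 0.16 and 0.28 otherwise. Scaling by library totals moved the median of all genes from 0.01 to 0.12 and that of the members to 0.28, and members higher within both letters from 5 to 8 (all genes from 30.0% to 41.7%). Other scalings and a prior count of 0.5 left that number within 1.5 times. Of 110 comparisons for single members, 102 kept their direction and stayed over an adjusted p of 0.05, and 8 turned negative, each with a library left out: without shCTR A *Col18a1* (−0.0084), *Lamb1* (−0.19), *Lamc1* (−0.089) and *Nid1* (−0.079), without shMettl14 A *Nid1* (−0.023) and *Hspg2* (−0.17), and without shMettl14 B *Col18a1* (−0.23) and *Lamb1* (−0.11). Their highest values with a library left out were 0.61 (*Col18a1*), 0.29 (*Lamb1*), 0.46 (*Lamc1*), 0.22 (*Nid1*) and 0.46 (*Hspg2*). The cause was not tested. With 1 library in a group the fit rests on the spread of the other group.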
